A study of Mus musculus with 16 samples.

Results

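A set of 81 genes stood higher in the bystander cells of an LPS-treated macrophage culture than in any other group of the experiment, out of 27179 genes in the deposited count table and 12589 that passed a filter on low counts. A gene was taken when its mean over the 4 bystander libraries was at least 5 CPM (the count rate over the TMM-scaled library total) and at least 2 times the mean of untreated cells, of the ungated LPS pool and of responders alike. Those thresholds were passed by 97 genes, and 7 named genes (Tlr4, Clec10a, Il18rap, Socs1, Irf1, Rgs2 and Otud1) and 9 unnamed loci were then set aside. The higher bystander level is therefore how the 81 genes were chosen, and it is given here as a description with no test.

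The cells were iBMDM MyD88-AGF, 1 line of mouse macrophages, derived from bone marrow and immortalised, of genotype MyD88-AGF WT, and every group carried that genotype. LPS, the endotoxin of Gram-negative bacteria, was given at 10 ng/mL for 6 h, and a cell sorter then separated cells of high side scatter, the responders, from cells of low side scatter, the bystanders. The LPS pool is the same treatment passed through the sorter without a gate, after the gated cells had been collected, so gate and order of collection cannot be told apart, and the untreated group went through ungated as well. Each of the 4 groups had 4 libraries of RNA, and nothing in the labels says that replicates were separate cultures, so p-values measure spread among these libraries only, and that spread may be technical.

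LPS is recognised by the receptor TLR4, which signals through the adaptor MyD88 to NF-kappaB and inflammatory cytokines, and through the adaptor TRIF to IRF3 and interferon beta. Secreted interferon acts on cells through its own receptor and the STAT proteins, so a cell need not have met the first stimulus to switch on interferon-stimulated genes. Among those genes the immunity-related GTPases and guanylate-binding proteins attack the vacuoles of intracellular pathogens, and the Mx proteins, the double-stranded RNA kinase PKR and the Schlafen proteins restrict viruses.

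Library totals ran from 15287344 to 25193162 counts. The macrophage genes Csf1r, Lyz2, Cd68, Itgam, Spi1 and Adgre1 were present in every group, and 14 macrophage markers summed to 5253 to 5284 CPM in untreated, 6540 to 6651 in pool, 6816 to 6869 in responder and 6144 to 6195 in bystander libraries. In 6 libraries (untreated replicate 1, LPS pool and bystander replicates 3 and 4, responder replicate 1) the neural genes Stmn2, Gap43 and Ptprz1 together reached 4.85 to 9.85 CPM, against at most 0.404 CPM in the others. No gene of the set is on a marker list for a cell type other than the macrophage. Fibroblast markers summed highest in LPS pool replicate 3 (119 CPM) and bystander replicate 3 (89.6 CPM). Epithelial markers reached 32.2 CPM in pool and 30.8 in bystander libraries, against at most 10.3 in untreated and 10.7 in responder libraries. Muscle markers reached 11.2 and 10.9 CPM in pool and bystander libraries, against at most 3.46 and 3.12 in untreated and responder libraries. The inflammatory cytokine gene Il1b stood at 7.78, 9.03, 64.1 and 65.1 CPM in bystander replicates 1 to 4 and at 36.5 CPM on average, against 3263 CPM in responders, so bystander replicates 3 and 4 stand apart in it. Without the 6 libraries with neural transcripts 79 genes met the thresholds, 76 of them from the set. In bulk RNA, fewer cells of a kind and less RNA per cell cannot be told apart.

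The sequence upstream of the set's immunity-related GTPase genes is shown first, because those genes are the clearest group in it. RefSeq's promoter table of build GRCm38.p6 holds 60 of the 81 genes, and the 250 bases before the transcription start were searched on both strands for 8 motifs. All 4 of the GTPase genes in the table, Tgtp1, Tgtp2, Irgm2 and Igtp, held TTCNNNGAA, the letters of a STAT site, and GAAA, any 2 bases and GAAA, those of an interferon response element, with 2 bases between the motifs. They were picked for printing after their values were seen. Capitals mark the motif letters, and each stretch is written 5′ to 3′ on the strand of its gene: chr11:48992304-48992344 (minus strand), chr11:49064263-49064351 (minus), chr11:58214892-58214932 (plus) and chr11:58199501-58199541 (plus).
Tgtp1: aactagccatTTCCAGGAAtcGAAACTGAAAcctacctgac
Tgtp2: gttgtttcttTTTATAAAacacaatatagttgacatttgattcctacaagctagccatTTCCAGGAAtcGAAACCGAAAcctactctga
Irgm2: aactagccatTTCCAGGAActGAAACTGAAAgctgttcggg
Igtp: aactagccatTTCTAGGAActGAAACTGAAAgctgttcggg

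In Tgtp1 the STAT letters began 88 bases before the start of transcription, in Tgtp2 81, in Irgm2 75 and in Igtp 45. The 10 bases before the STAT letters were identical in Tgtp1, Irgm2 and Igtp, and Tgtp2 matched them at 9 positions. Tgtp2 also held TATAAA in both orientations, which overlap, further upstream. In the whole set, STAT letters stood upstream of 9 of 60 genes (15%) and upstream of 8.13% of the 27025 genes in the table, and the interferon response letters of 9 of 60 (15%) against 3.46%. The NF-kappaB motif was found in 7 genes (11.7%) against 8.23%, TATAAA in 11 (18.3%) against 14.3%, TGTTTAC, the FOXO motif, in 4 (6.67%) against 3.54%, TGANTCA, the AP-1 motif, in 3 (5%) against 7.82%, TGACGTCA, the cAMP response element, in 2 (3.33%) against 1.77%, and CACGTG, an E-box, in 2 (3.33%) against 6.86%. Nearby genes can share these letters through duplication, and a match is a string of letters, not a site shown to be used.

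Irf2, Hhex and Resf1 are the transcription factor and chromatin genes of highest bystander ratio that held any of the motifs, and their sequence is printed for that reason, from chr8:46739495-46739744, chr19:37434599-37434628 and chr6:149309273-149309298, all on the plus strand.
Irf2: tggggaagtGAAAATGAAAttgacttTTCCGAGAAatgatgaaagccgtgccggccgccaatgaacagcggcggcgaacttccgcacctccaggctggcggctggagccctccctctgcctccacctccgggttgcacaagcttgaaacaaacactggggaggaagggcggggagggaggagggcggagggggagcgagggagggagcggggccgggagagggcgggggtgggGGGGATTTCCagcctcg
Hhex: acaccctggcGGAGGGTCCCcggagcccca
Resf1: gtgattctcaTATAAAttctaggtgc

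In the Irf2 window, the interferon response letters begin 241 bases upstream and the STAT letters follow 7 bases later, the reverse of the order in the GTPase genes, and an NF-kappaB motif begins 17 bases upstream. Hhex held an NF-kappaB motif on the opposite strand and Resf1 TATAAA.

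Bystander means of the 81 genes ran from 5.29 CPM (Nrcam, a neuronal cell adhesion molecule) to 988 CPM (Plau, the urokinase plasminogen activator), with a median of 61.7 CPM. The ratio of the bystander mean to the highest of the other 3 means ran from 2.0 to 5.61 with a median of 2.38, and it was at least 3 in 17 genes and at least 5 in 2. Zcchc2 (2.005) and Atp6v0a1 (2.007) lay just inside the ratio threshold, and Thap6 (1.997) and Fos (1.98) just outside it. Nrcam (5.29 CPM) and Lhx2 (5.45 CPM) were just inside the level threshold and Fbn1 (4.65 CPM) and Noxred1 (4.48 CPM) just outside. Taken one bystander library at a time, 73, 77, 74 and 76 of the 81 genes met both thresholds in replicates 1 to 4, and 67 met them in all 4. Since the genes were chosen on the mean of these 4 libraries, the counts describe the choice and do not show that the libraries are alike. In all 81 genes each bystander library stood above each of the 12 others, an order found in 12.7% of the genes tested, and the way the set was chosen favours it.

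**Figure D1:**
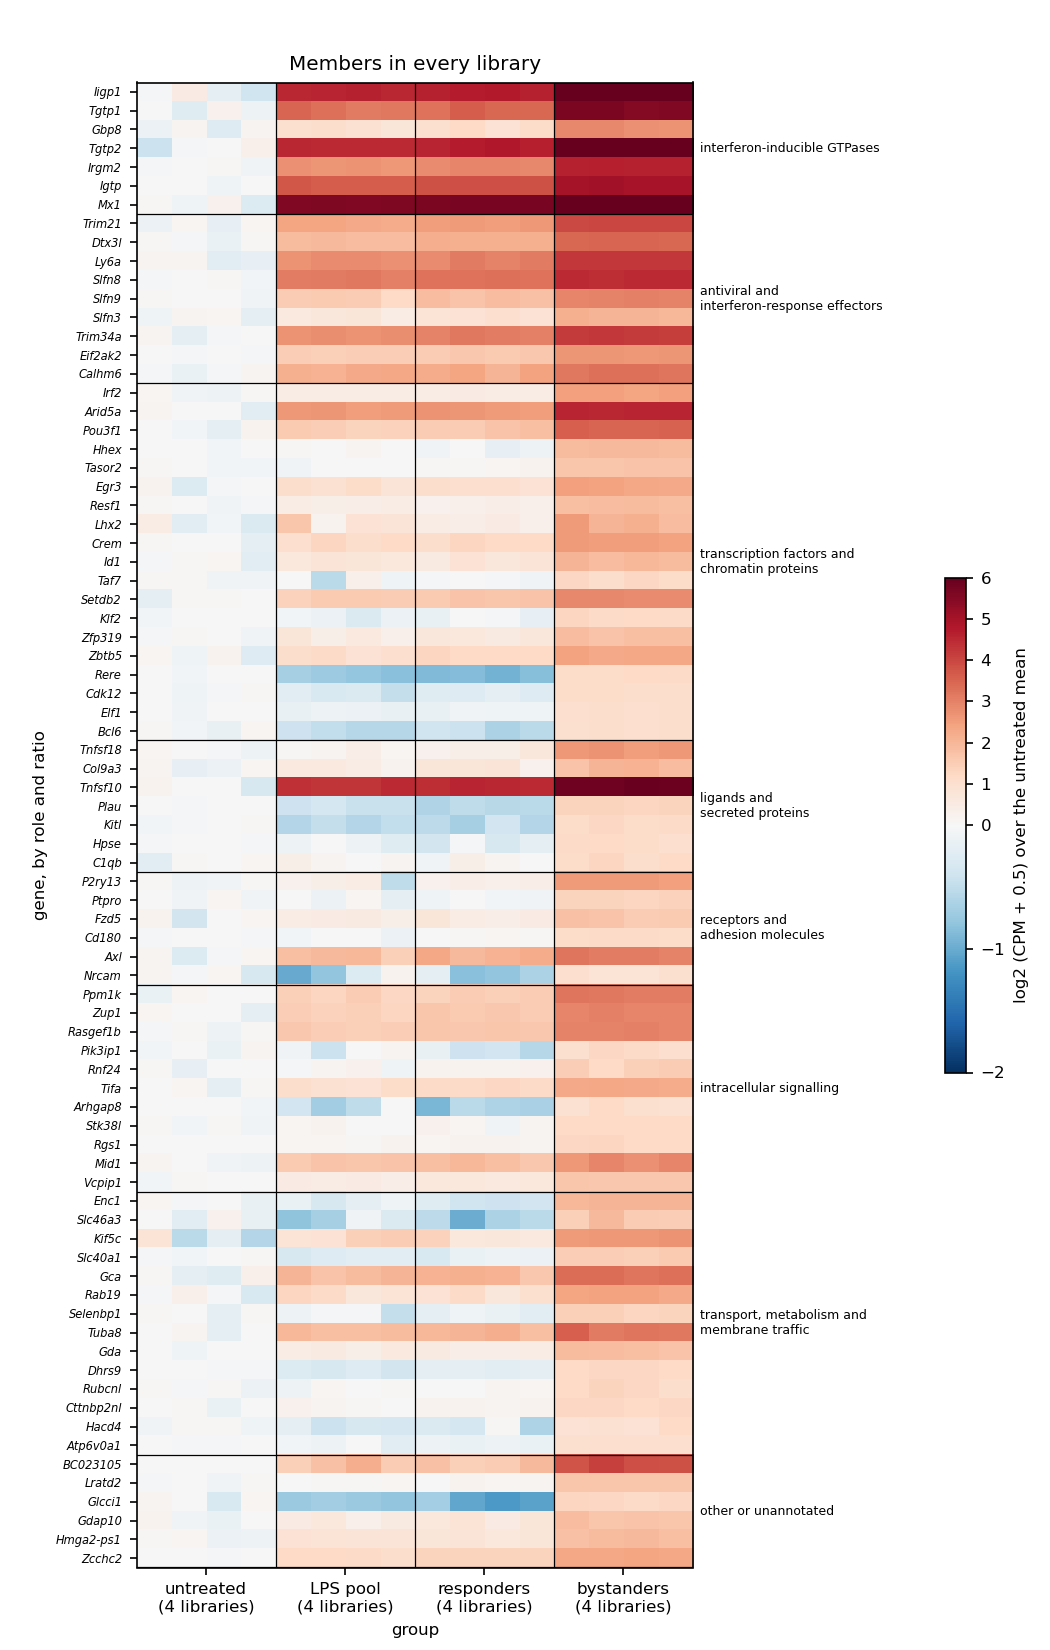
79 of the 81 genes (lines, grouped by role) in all 16 libraries (columns, 4 per group), as log2 of the CPM plus 0.5 over the untreated mean plus 0.5; red is above and blue below untreated, and the colour scale is steeper below 0. The bystander columns are the reddest in every line, while the LPS pool and responder columns are red for the GTPases and antiviral genes and near white or blue for genes such as Hhex and Rere.

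The other 3 groups were not alike in how they ranked. Responders had the highest of the 3 means in 49 genes, untreated cells in 22 and the LPS pool in 10. Untreated cells had the lowest in 56. The contrasts among these 3 groups were not a criterion of the choice, but the rule used the mean of each group. A gene that LPS lowered had to stand further above the pool to be taken. The choice can therefore shape the counts below, and how far was not tested. These contrasts were tested with edgeR's quasi-likelihood test on the whole table, with Benjamini-Hochberg adjustment and a call at an adjusted p under 0.05. The contrasts share libraries in pairs, and each one's values stand on their own.

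LPS raised most of the set and lowered a smaller portion of it. In the LPS pool against untreated cells 49 of the 81 genes were higher (60.5%, against 34.1% of all genes tested) and 17 were lower (21%, against 37.8%), and 15 had no call. The median log2 fold was +0.53 in the set and -0.03 over all genes. At least 2-fold changes were called upward in 35 genes of the set, against 9.72% of all genes, and downward in 0, against 3.74%. In responders against untreated cells 54 were higher (66.7%, against 36.5%) and 18 lower (22.2%, against 38.5%), with a median of +0.63 against -0.02. At 2-fold or more, 34 were higher (10.8% of all genes) and 1, Glcci1, lower (6.24%).

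Set against untreated cells, the bystander mean of the 49 LPS-raised genes was a median of 8.04 times as high (range 2.36 to 166). That of the 17 LPS-lowered genes was a median of 2.24 times as high (2.01 to 4.17), and that of the 15 without a call 2.54 times (2.2 to 7.61). The choice of genes sets a floor of 2 times under each of these values and a higher one for genes that LPS raised, so they are a description. Of the 17, 16 were also called lower in responders than in untreated cells. Both contrasts use the same untreated libraries, and this overlap was not counted over all genes. When libraries were scaled by their totals alone, the median of all genes moved to -0.36 and that of the set to +0.20, and 31 genes of the set were called lower.

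The interferon-inducible GTPases, 7 genes, were all higher in the LPS pool than in untreated cells, against 34.1% of all genes tested. Their median log2 fold was +4.58, and all 7 stayed higher under scaling by totals. Iigp1 (Irga6; chromosome 18, 60373616 to 60392634, GRCm38), an immunity-related GTPase, is recruited to the vacuole of Toxoplasma. Iigp1 stood at 1.31, 2.11, 1.13 and 0.918 CPM in the untreated libraries, 42, 44.5, 45.7 and 42.6 in the LPS pool, 45.5, 47.9, 50.1 and 45.6 in responders and 229, 233, 224 and 223 in bystanders. The groups did not overlap except pool with responders, and the bystander mean was 4.81 times the responder mean. In log2 fold, the LPS pool exceeded untreated cells by +4.99 ± 0.09 (adjusted p = 1.25e-47), and responders exceeded the pool by +0.11 ± 0.04 (adjusted p = 0.0572), which was not called. BC023105, annotated as a pseudogene by RefSeq (chromosome 18, 60438431 to 60443320), lies close to it. BC023105 had 1 read in each untreated library, 15 to 32 reads in LPS pool libraries, 20 to 35 in responders and 120 to 193 in bystanders, and no fold against untreated is given.

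Tgtp1 and Tgtp2, which encode T-cell-specific GTPases (Irgb6 proteins), lie close together on chromosome 11 (48985329 to 48992246 and 49057196 to 49064212) and are near-identical, so the split of reads between them is uncertain. Tgtp1 stood at 0.317, 0.180, 0.463 and 0.250 CPM in the untreated libraries, 8.43, 7.31, 6.39 and 6.68 in the LPS pool, 7.23, 9.33, 8.36 and 8.12 in responders and 39.5, 39.1, 35.6 and 37.4 in bystanders. Tgtp2 stood at 0.317, 0.585, 0.617 and 0.876 CPM in the untreated libraries, 24.6, 23.7, 23.6 and 24.2 in the LPS pool, 25.2, 28, 30.1 and 27.4 in responders and 93.3, 93.4, 93.8 and 90.3 in bystanders. Both were barely present in untreated cells and lay above that in every LPS library. Tgtp2 was also higher in every responder library than in every pool library, by +0.20 ± 0.06 (adjusted p = 0.004).

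Igtp (Irgm3) and Irgm2 are regulatory members that guard the cell's own membranes, and they neighbour each other on chromosome 11 with exons that overlap on the same strand in GENCODE M21. Irgm2 stood at 13.5, 13.9, 14.8 and 13.2 CPM in the untreated libraries, 94.1, 90.7, 92.3 and 86.8 in the LPS pool, 104, 111, 109 and 107 in responders and 349.8, 360.1, 356 and 347 in bystanders. Igtp stood at 18.7, 18.9, 17.4 and 18.5 CPM in the untreated libraries, 250.4, 235, 231 and 236 in the LPS pool, 269, 272, 273 and 262 in responders and 596, 619.9, 587 and 579.8 in bystanders. The 4 groups did not overlap in either gene, and the order was untreated, pool, responders, bystanders in both. Responders exceeded the pool by +0.24 ± 0.03 (adjusted p = 2.58e-09) for Irgm2 and +0.18 ± 0.02 (adjusted p = 2.88e-08) for Igtp.

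Gbp8 belongs to the guanylate-binding proteins, and its exons overlap those of Gbp4 and Gbp9 on the same strand. Gbp8 stood at 2.13, 2.74, 1.9 and 2.67 CPM in the untreated libraries, 5.08, 5.36, 4.9 and 4.29 in the LPS pool, 5.09, 6.02, 4.68 and 5.64 in responders and 20.4, 20.8, 18.9 and 17.8 in bystanders. Pool and responders overlapped, and both lay above untreated cells; the pool exceeded them by +1.05 ± 0.13 (adjusted p = 2.65e-10). Mx1, the dynamin-like influenza restriction factor, is annotated as a transcribed pseudogene in this reference. Mx1 stood at 3.49, 3.06, 4.01 and 2.63 CPM in the untreated libraries, 177, 183, 178 and 181 in the LPS pool, 193, 195, 199 and 194 in responders and 407, 409.6, 406 and 419.7 in bystanders. No group overlapped another. Its rise from untreated cells to the pool, +5.78 ± 0.05 (adjusted p = 1e-68), was the largest log2 fold of any gene of the set.

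**Figure D2:**
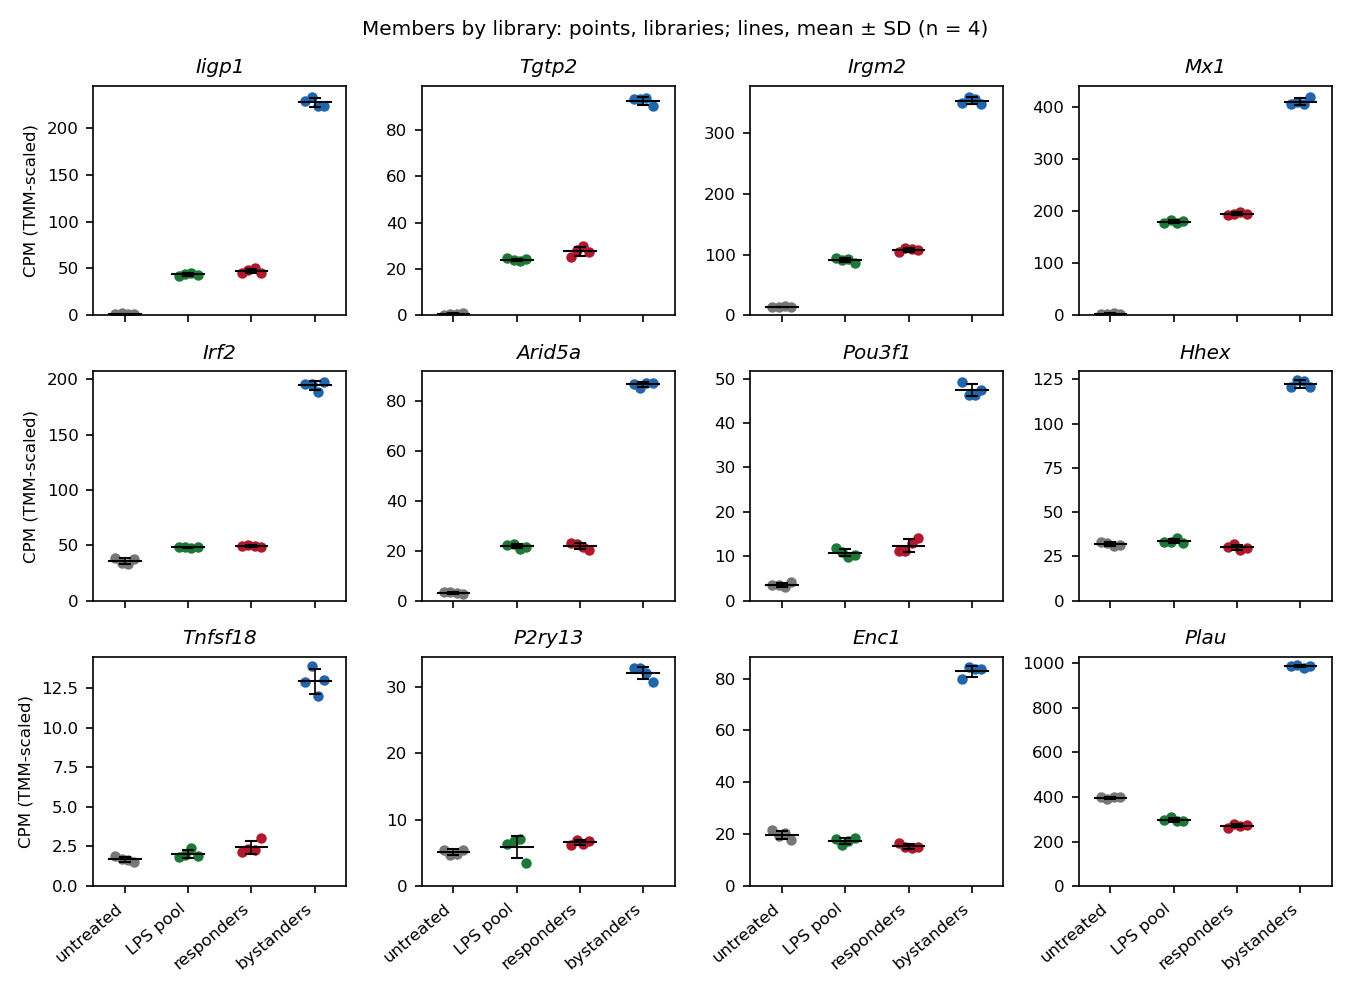
CPM of 12 genes of the set in every library (y axis, linear from 0; x axis, the 4 groups of 4 libraries), with the mean and SD as lines. The 4 bystander libraries stand apart in each panel, while untreated cells are lowest for Iigp1, Tgtp2, Irgm2 and Mx1 and lie above the pool and responders for Plau.

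The other antiviral and interferon-response genes, 10 in number, were all called higher in the pool than in untreated cells, against 34.1% of all genes tested. Their median log2 fold was +2.13, and 9 of the 10 were called higher under scaling by totals. Slfn8, a Schlafen protein, had the steepest rise. Slfn8 stood at 11.3, 11.6, 12.1 and 11.1 CPM in the untreated libraries, 102, 104, 106 and 98.2 in the LPS pool, 113, 114, 119 and 113 in responders and 269.8, 259.9, 264 and 268 in bystanders. The groups were fully separate and in the same order as for Igtp. Slfn9 (19.8, 55.5, 70.1 and 159 CPM in untreated, pool, responder and bystander means) and Slfn3 (14.6, 22.5, 27.5 and 61.7) lie in the same cluster on chromosome 11, and reads of similar Schlafen genes may be shared between them.

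Trim21, an intracellular antibody receptor and ubiquitin ligase, had means of 12.2, 63.1, 73.5 and 202 CPM in the same order of groups. Trim34a, a ligase whose close paralogues may share its reads, had 5.1, 36.9, 46.2 and 102 CPM. Both were higher in the pool than in untreated cells, by +2.37 ± 0.05 (adjusted p = 1.47e-46) and +2.85 ± 0.07 (adjusted p = 5.17e-44) on the log2 scale. Dtx3l, the ubiquitin ligase partner of Parp9, had 34.1, 127, 151 and 381 CPM, and its exons overlap those of Parp9 on the other strand.

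Eif2ak2, which encodes PKR, had means of 63.9, 178, 193 and 400.0 CPM. Ly6a (Sca-1), a surface protein induced by interferon, had 2.16, 17.8, 20.9 and 49.7 CPM, and Calhm6, a channel protein of activated macrophages, 1.34, 7.91, 8.28 and 17.1 CPM. In these 10 genes bystanders held between 2.06 and 2.75 times the responder level.

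Transcription factors and chromatin proteins were the largest group, with 20 genes. In the pool against untreated cells 11 were higher and 6 lower (34.1% and 37.8% of all genes tested) and 3 had no call. The median log2 fold of the 20 was +0.42. Irf2, a repressor and activator at interferon response elements, had the highest ratio of the 20. Irf2 stood at 38.3, 33.8, 33.1 and 37.6 CPM in the untreated libraries, 48.1, 48.8, 48 and 48.6 in the LPS pool, 49.1, 50.5, 49 and 48.5 in responders and 196, 196, 188 and 198 in bystanders. Pool and responder libraries overlapped just above the untreated ones, and the bystander mean was 3.95 times the responder mean. The pool exceeded untreated cells by +0.44 ± 0.04 (adjusted p = 2.07e-14).

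Arid5a, an RNA-binding protein that stabilises inflammatory mRNAs, rose in the LPS pool and in responders. Arid5a stood at 3.62, 3.33, 3.24 and 2.67 CPM in the untreated libraries, 22.3, 22.8, 20.8 and 21.5 in the LPS pool, 23.2, 22.8, 21.5 and 20.4 in responders and 86.8, 85.1, 87.2 and 87.2 in bystanders. Pool and responders overlapped and stood +2.77 ± 0.08 (adjusted p = 7.74e-39) and +2.77 ± 0.08 (adjusted p = 1.32e-39) above untreated cells on the log2 scale. Pou3f1 (Oct-6), a POU factor, did likewise. Pou3f1 stood at 3.62, 3.46, 3.14 and 4.26 CPM in the untreated libraries, 11.8, 11.1, 9.93 and 10.3 in the LPS pool, 11.2, 11.3, 13.1 and 14.1 in responders and 49.3, 46.3, 46.4 and 47.5 in bystanders. Its pool and responder libraries overlapped.

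Egr3, an immediate-early zinc finger factor, was low throughout. Egr3 stood at 1.72, 1.08, 1.39 and 1.46 CPM in the untreated libraries, 3.52, 3.13, 3.6 and 2.74 in the LPS pool, 3.42, 3.31, 3.28 and 2.94 in responders and 10, 9.81, 9.0 and 8.77 in bystanders. Bystanders stood apart from pool and responders, which overlapped. Crem, a cAMP-responsive modulator, had group means of 11.5, 25.8, 27 and 67.7 CPM, Id1, an inhibitor of helix-loop-helix factors, 4.75, 8.02, 8.15 and 19.6, and Setdb2, a histone methyltransferase, 11.2, 32.9, 36.4 and 84.6. Resf1 (37.8, 50.5, 47.4 and 136), Zbtb5 (6.15, 13.1, 15 and 33.4) and Zfp319 (11.4, 16.4, 17.9 and 40.5) were also called higher in the pool.

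Some genes of this group took the opposite course under LPS. Rere, a nuclear receptor corepressor, had means of 126, 74.7, 68.1 and 278 CPM and was lower in the pool, at a log2 fold of -0.75 ± 0.03 (adjusted p = 1.8e-30). Bcl6, a repressor of inflammatory genes, had 16.7, 11.6, 11.7 and 34.4 CPM and was lower, at -0.53 ± 0.07 (adjusted p = 2.57e-09). Cdk12 (38.2, 30.5, 32.4 and 81.1), the transcription elongation kinase, Klf2 (40.6, 36.7, 38.3 and 93.6), a brake on myeloid activation, and Elf1 (64.6, 59, 60.5 and 134), an ETS factor, were also lower.

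Hhex, a haematopoietic homeobox factor, differed little among the other groups. Hhex stood at 33, 32.3, 30.9 and 31.7 CPM in the untreated libraries, 33.3, 32.9, 35.4 and 32.6 in the LPS pool, 30.5, 32, 28.5 and 29.8 in responders and 121, 125, 124 and 120.5 in bystanders. Untreated libraries overlapped with both LPS groups, and responders lay below the pool, at -0.15 ± 0.05 (adjusted p = 0.0106). That call ended without LPS pool replicate 3 or responder replicate 3 (edgeR adjusted p = 0.053 and 0.0545) and without the 6 libraries with neural transcripts (adjusted p = 0.101). Tasor2, a paralogue of a subunit of the HUSH silencing complex, also differed little among the other groups, but its responders lay above the pool. Tasor2 stood at 39.4, 38.4, 36 and 36.2 CPM in the untreated libraries, 35.8, 37.2, 37.5 and 37.9 in the LPS pool, 39, 38.7, 41.1 and 42.9 in responders and 122, 121, 123 and 122 in bystanders. Its difference between pool and untreated cells was -0.02 ± 0.04 (adjusted p = 0.754), and responders exceeded the pool by +0.12 ± 0.04 (adjusted p = 0.0256). The latter call ended under scaling by totals (adjusted p = 0.247), without the bystander libraries (0.0891) and without LPS pool replicate 1 or 2 or responder replicate 3 or 4 (adjusted p from 0.0514 to 0.147, edgeR). Scaling by totals turned its responder against untreated fold from +0.11 to -0.27. Taf7 (5.6, 5.38, 5.48 and 13.2 CPM), a TFIID subunit, had no call in any contrast tested with TMM scaling. Under scaling by totals Taf7 was called lower than untreated cells in the pool (-0.41) and in responders (-0.42). So was Hhex (-0.26 and -0.47). Lhx2, a homeobox factor near the level threshold, was variable. Lhx2 stood at 1.31, 0.630, 0.771 and 0.584 CPM in the untreated libraries, 3.64, 1.04, 1.92 and 1.76 in the LPS pool, 1.33, 1.23, 1.34 and 1.12 in responders and 7.32, 4.91, 5.24 and 4.34 in bystanders. Its untreated, pool and responder libraries overlapped, with pool replicate 1 the highest of them, and the pool exceeded untreated cells by +1.33 ± 0.33 (adjusted p = 0.000943).

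Of 7 ligands and secreted proteins, 2 were higher in the pool than in untreated cells and 2 lower (34.1% and 37.8% of all genes tested). Tnfsf18 (GITR ligand) costimulates T cells and had the highest ratio of any protein-coding gene of the set, 5.29. Tnfsf18 stood at 1.9, 1.71, 1.65 and 1.54 CPM in the untreated libraries, 1.85, 1.95, 2.42 and 1.9 in the LPS pool, 2.14, 2.32, 2.29 and 3.03 in responders and 12.9, 13.9, 12 and 13 in bystanders. The pool overlapped with untreated cells and differed from them by +0.25 ± 0.17 (adjusted p = 0.182), without a call. Tnfsf10 (TRAIL), a death ligand induced by interferon, had another pattern. Tnfsf10 stood at 0.770, 0.630, 0.617 and 0.376 CPM in the untreated libraries, 22.1, 20.8, 20.7 and 23.8 in the LPS pool, 23.3, 25.3, 24.7 and 24.2 in responders and 62, 63.2, 65.9 and 63.4 in bystanders. Pool and responders stood far above untreated libraries, by +5.18 ± 0.12 (adjusted p = 5.1e-45) for the pool.

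Plau was the most abundant gene of the set. Plau stood at 399.7, 391, 398 and 398 CPM in the untreated libraries, 299, 309, 292 and 292 in the LPS pool, 261, 279, 269.7 and 274 in responders and 987, 994, 981 and 988 in bystanders. Pool and responder libraries stood below untreated ones, at log2 folds of -0.41 ± 0.02 (adjusted p = 9.03e-26) and -0.55 ± 0.02 (adjusted p = 2.1e-32), and responders below the pool, at -0.14 ± 0.02 (adjusted p = 1.31e-06). Kitl, the stem cell factor, had means of 34.9, 23.9, 24 and 78.1 CPM and was lower in the pool, at a log2 fold of -0.54 ± 0.05 (adjusted p = 3.23e-14). C1qb (4.53, 5.19, 4.97 and 10.7), a chain of complement C1q, and Hpse (10.9, 10.1, 9.26 and 24.2), heparanase, had no call in the pool, and Col9a3 (1.67, 2.46, 2.86 and 7.76), a collagen chain, was higher there.

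Receptors and adhesion molecules numbered 6, with 2 higher in the pool and 1 lower (34.1% and 37.8% of all genes tested) and 3 without a call. P2ry13, an ADP receptor of macrophages, had the highest ratio of them, 4.89. P2ry13 stood at 5.43, 4.72, 4.83 and 5.47 CPM in the untreated libraries, 6.29, 6.74, 7.13 and 3.45 in the LPS pool, 6.18, 6.91, 6.37 and 6.81 in responders and 32.8, 32.8, 32 and 30.8 in bystanders. Pool replicate 4 lay below every untreated library and the other 3 above, and the pool had no call. Axl, a receptor for dying cells, had 0.318, 2.36, 3.14 and 6.47 CPM and was higher in the pool by +2.88 ± 0.25 (adjusted p = 3.6e-16), and Fzd5, a Wnt receptor, had 6.56, 9.2, 9.63 and 21.5. Cd180 (112, 109.7, 116 and 246), a TLR4-like protein that restrains LPS responses, and Ptpro (22.4, 21.6, 21.8 and 56.9), a receptor phosphatase, did not reach a call in the pool against untreated cells. Nrcam was the lowest gene of the set. Nrcam stood at 2.99, 2.52, 2.88 and 1.96 CPM in the untreated libraries, 1.04, 1.28, 2.05 and 3.02 in the LPS pool, 2.23, 1.23, 1.29 and 1.49 in responders and 5.78, 4.97, 4.89 and 5.53 in bystanders. Its other 3 groups overlapped, and the pool lay below untreated cells, at -0.53 ± 0.22 (adjusted p = 0.0335).

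Of 11 intracellular signalling genes, 7 were higher in the pool and 1 lower (34.1% and 37.8% of all genes tested) and 3 had no call. Ppm1k, a mitochondrial phosphatase of branched-chain amino acid breakdown, had the highest ratio. Ppm1k stood at 5.03, 5.98, 5.5 and 5.63 CPM in the untreated libraries, 15.9, 14.1, 16.6 and 13.6 in the LPS pool, 14.5, 16.6, 15.5 and 17.1 in responders and 56.2, 53.1, 49.8 and 49.4 in bystanders. Both LPS groups stood above untreated cells and overlapped. Rasgef1b, an LPS-inducible Ras exchange factor, had 32.9, 94.1, 104 and 265 CPM, Tifa, a TRAF6 adaptor, 14.8, 29.8, 33.6 and 73.3, and Zup1, a deubiquitinase, 4.48, 12.7, 14.6 and 38.5. Mid1 (3.0, 10.6, 11.8 and 24), Vcpip1 (38.7, 53.6, 59.8 and 120.5) and Rgs1 (81.1, 88.8, 92.7 and 191), a brake on G-protein signals, were also called higher. Arhgap8 (4.29, 3.23, 2.51 and 9.15) was lower. Pik3ip1 (2.74, 2.6, 2.0 and 6.48), an inhibitor of PI3 kinase, Rnf24 (7.99, 8.46, 9.47 and 22.3) and Stk38l (26.9, 28.5, 29.4 and 62) had no call in the pool. In responders against untreated cells Pik3ip1 was called lower and the other named genes, Rnf24 and Stk38l, higher. Rgs1 turned from higher to lower when libraries were scaled by totals alone.

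Of 14 genes of transport, metabolism and membrane traffic, 6 were higher and 6 lower in the pool, against 34.1% and 37.8% of all genes tested. Enc1, an actin-associated Kelch protein, had the highest ratio. Enc1 stood at 21.6, 19.5, 20.4 and 17.9 CPM in the untreated libraries, 18, 15.8, 17.2 and 18.7 in the LPS pool, 16.7, 15, 14.7 and 15.1 in responders and 79.8, 84.4, 83.7 and 83.6 in bystanders. Responders lay below untreated libraries. The responder against pool difference was -0.17 ± 0.07 (adjusted p = 0.049) by edgeR, and leaving out any of 12 single libraries ended that call (adjusted p from 0.0506 to 0.161). Slc46a3, a lysosomal transporter, was low in every group. Slc46a3 stood at 1.63, 1.3, 2.0 and 1.38 CPM in the untreated libraries, 0.693, 0.807, 1.49 and 1.2 in the LPS pool, 0.951, 0.543, 0.846 and 0.933 in responders and 5.15, 7.39, 5.39 and 5.24 in bystanders. Pool and untreated libraries overlapped; the call of -0.61 ± 0.24 (adjusted p = 0.0203) was lost without untreated replicate 3 or pool replicate 1 or 2 (adjusted p = 0.0875, 0.102 and 0.0914), and without the bystander libraries (adjusted p = 0.0505).

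Kif5c, a kinesin heavy chain best known from neurons, varied within groups. Kif5c stood at 1.95, 0.450, 0.720 and 0.417 CPM in the untreated libraries, 1.96, 1.99, 3.23 and 3.45 in the LPS pool, 3.09, 1.63, 1.74 and 1.59 in responders and 7.73, 7.87, 7.87 and 8.36 in bystanders. The highest library of every group is among the 6 libraries with neural transcripts. These are untreated replicate 1, LPS pool replicate 4, responder replicate 1 and bystander replicate 4. LPS pool replicate 3, the next highest of the pool, is also among the 6. The bystander libraries differed little, from 7.73 to 8.36 CPM. The 25 neural markers summed to 340 to 375 CPM in untreated, 254 to 268 in pool, 226 to 264 in responder and 346 to 368 in bystander libraries, and 14 of the 25 lay below 1 CPM throughout. The pool exceeded untreated cells by +1.56 ± 0.42 (adjusted p = 0.00426) with all libraries and by +1.92 (adjusted p = 5.52e-08, edgeR) without the 6. Slc40a1 (23.4, 19.6, 20.9 and 66.1 CPM), the iron exporter ferroportin, Dhrs9 (72.3, 58.4, 63 and 170.0), a retinol dehydrogenase, and Hacd4 (8.16, 6.47, 6.6 and 16.5) were lower in the pool, and Gda (19.6, 27.7, 27 and 70.7), guanine deaminase, Gca (0.278, 2.45, 2.63 and 7.11), grancalcin, Tuba8 (1.26, 5.93, 6.49 and 16.6), a tubulin, and Rab19 (3.83, 8.21, 7.69 and 22) were higher. Selenbp1 (11, 9.9, 9.87 and 29.4) and Rubcnl (8.87, 9.1, 9.33 and 21.3) had no call. Cttnbp2nl (65.5, 71.5, 74.9 and 155) was higher, and lower under scaling by totals. Atp6v0a1, a subunit of the vacuolar proton pump, sat on the ratio threshold. Atp6v0a1 stood at 89.3, 85.8, 85.1 and 89.2 CPM in the untreated libraries, 84, 81.8, 87 and 74.7 in the LPS pool, 81.8, 79.6, 80.9 and 79.4 in responders and 173, 174, 178 and 176 in bystanders. Pool and untreated libraries overlapped there.

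The remaining genes are less well described. Zcchc2, at the ratio threshold, dropped out of the set when any 1 of 13 libraries was left out. Zcchc2 stood at 52.1, 52.5, 49.9 and 51.4 CPM in the untreated libraries, 117, 120.0, 115 and 108 in the LPS pool, 131, 130.2, 131 and 132 in responders and 262, 262, 265 and 259.9 in bystanders. All 4 groups were separate, in the order untreated, pool, responders, bystanders. Lratd2 varied little outside bystanders. Lratd2 stood at 53.4, 56.3, 51.9 and 57.2 CPM in the untreated libraries, 56, 57.1, 58 and 58.9 in the LPS pool, 54.8, 63.7, 59.6 and 60.6 in responders and 174, 175, 177 and 176 in bystanders. Its untreated, pool and responder libraries overlapped. Glcci1 had 8.54, 4.9, 4.11 and 20.9 CPM and was the gene of the set that LPS lowered most, at -0.80 ± 0.11 (adjusted p = 1.22e-09) in the pool and -1.06 ± 0.11 (adjusted p = 1.15e-13) in responders. The lncRNA Gdap10 (1.35, 2.11, 2.46 and 5.63) and the pseudogene Hmga2-ps1 (9.12, 16.5, 15.4 and 34.5), whose reads may come from Hmga2, were higher in the pool.

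**Figure D3:**
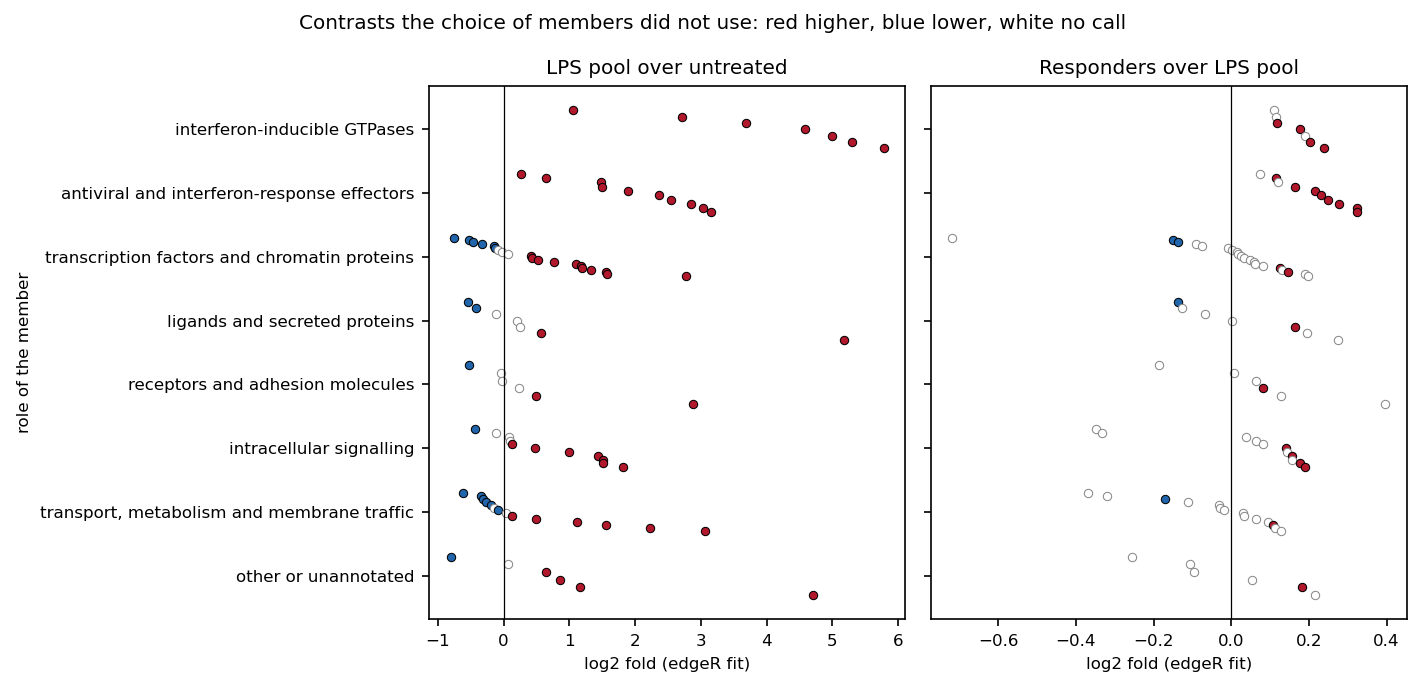
Log2 fold (x axis) of each of the 81 genes (points) by role (y axis) for the LPS pool over untreated cells (left) and responders over the LPS pool (right), filled where the adjusted p was under 0.05. All GTPases and antiviral genes lie above 0 on the left, and folds on the right are small, with 22 genes called higher and 4 lower.

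Responders and the ungated LPS pool differed little in the set. Responders were called higher in 22 genes (27.2%, against 16% of all genes tested) and lower in 4 (4.94%, against 9.49%), with a median log2 fold of +0.08 against +0.01. The count of 4 rose to 7 without LPS pool replicate 2 and fell to 2 without LPS pool replicate 3. At 2-fold or more 0 were higher (0.0715% of all genes) and 0 lower (0.302%). Of the 22, 4 were GTPases and 8 antiviral genes. Dtx3l stood at a log2 fold of +0.25 ± 0.03 (adjusted p = 1.07e-10), Slfn9 at +0.32 ± 0.05 (adjusted p = 7.84e-05), Trim34a at +0.32 ± 0.05 (adjusted p = 6.05e-08) and Slfn3 at +0.28 ± 0.06 (adjusted p = 0.000439). The 4 that were lower were Plau, Enc1, Hhex and Rere, the last at -0.14 ± 0.03 (adjusted p = 0.00157). Of the 22, 19 were also higher in the pool than in untreated cells, as were 49 of all 81. This overlap was not counted over all genes, and both contrasts use the pool libraries. With totals alone, 13 genes were higher and 6 lower.

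The LPS pool did not lie between the sorted groups for most of the set. Its mean was below both the responder and the bystander mean in 59 of 81 genes (72.8%) and between them in 22. The choice of genes puts the bystander mean above the pool mean in all 81. The 59 are therefore simply the genes with the responder mean above the pool mean. Scaling by totals alone moved the set's median log2 fold of responders over the pool from +0.081 to +0.026. Over all genes tested, the responder mean exceeded the pool mean in 53.1%. The pool was collected after the sorted cells, and the part of that order in the result was not tested.

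Lists of pathway genes were drawn up with earlier results of these data known. Of 40 type I interferon-stimulated genes tested, all were higher in the pool than in untreated cells. In bystanders 16 of the 40 had their highest mean, against 26.3% of all genes, and 3 (Mx1, Slfn8 and Eif2ak2) are in the set. Within the guanylate-binding proteins, Gbp8 is in the set. Gbp4 and Gbp9, whose exons overlap those of Gbp8, had bystander means of 1.40 and 1.19 times the highest other mean. In Gbp7, Gbp2, Gbp3, Gbp6 and Gbp5 that ratio was 0.98, 0.75, 0.45, 0.36 and 0.31.

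The inflammatory lists held few genes that were highest in bystanders. Of 27 inflammatory cytokines and chemokines, all higher in the pool, 1 was highest in bystanders and 0 are in the set, and of 22 NF-kappaB feedback regulators also 1 and 0. Of 33 immediate-early genes 14 were highest in bystanders and 3 (Egr3, Klf2 and Rgs1) are in the set. Of 22 FOXO and quiescence-associated targets 10 were highest in bystanders, 12 were lower in the pool and 6 higher, and 3 (Klf2, Bcl6 and Pik3ip1) are in the set. Highest in bystanders were 6 of 16 cAMP and CREB targets (Crem and Rgs1 in the set), 5 of 12 glucocorticoid receptor targets (0), 4 of 12 STAT6 genes (0), 4 of 15 STAT5 targets (Bcl6), 9 of 15 histone genes (0), 5 of 28 mitosis genes (0), 3 of 18 nuclear-retained transcripts (0) and 11 of 24 signal brakes (Rgs1). Among all genes tested, 26.3% were highest in bystanders, and 34.1% were higher and 37.8% lower in the pool. Counts in the set leave out the genes set aside by name. With those, 4 signal brakes, 4 immediate-early genes, 4 FOXO, 3 cAMP and 2 STAT5 targets and 1 STAT6 gene passed the thresholds. The counts describe the lists, and no difference between lists was tested.

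**Figure D4:**
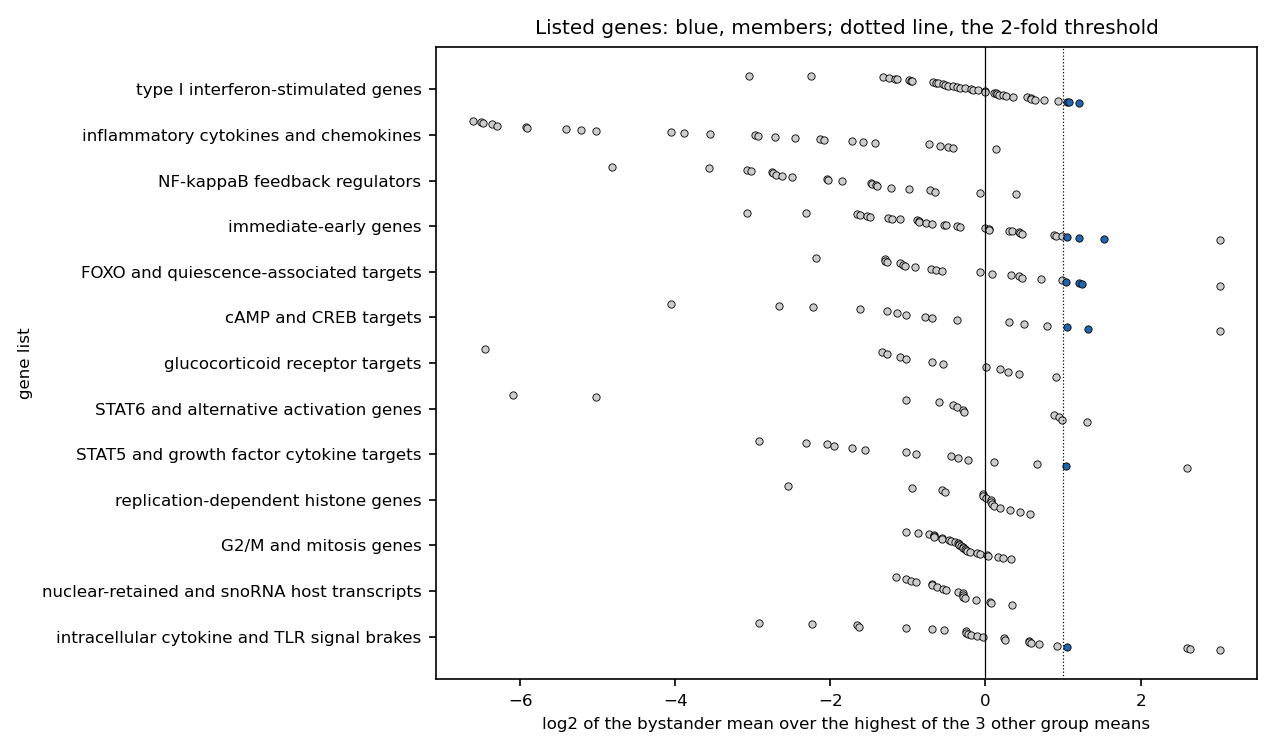
Log2 of the bystander mean over the highest other group mean (x axis) for each tested gene (points) of pathway lists (y axis), with genes of the set in blue and the 2-fold threshold dotted. The blue points fall in the type I interferon, immediate-early, FOXO, cAMP, STAT5 and signal-brake lists, and the inflammatory list lies almost wholly below 0.

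Some genes of the set lie near each other. In all, 11 lie within 500 kb of another: Tgtp1 with Tgtp2, Igtp with Irgm2, and Slfn9, Slfn8 and Slfn3 on chromosome 11, Iigp1 with BC023105 on chromosome 18, and Zup1 with Calhm6 on chromosome 10. Chromosome 11 holds 10 of the 81. Exons of 23 genes overlap an exon of another gene in GENCODE M21, of 78 found there. Since the strand setting of the counting is not given in the sources used here, reads of overlapping pairs cannot be told apart. The same counts of neighbours, chromosomes and overlaps were not made over all genes, so they only describe positions.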

How the data were processed

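RNA sequencing of 16 libraries, 4 in each of 4 groups, was read from a table of raw read counts per gene that the authors deposited. The submitters' processing notes list featureCounts 2.1.1, HISAT2 2.2.2, fastp 1.1.0, cutadapt 3.7 and the builds GRCm38 and mm10. No source used here states the strand setting or the handling of multi-mapped reads. The table held 3 empty columns and 0 columns of other samples. Of its Entrez identifiers, 25275 matched RefSeq names and 1904 did not (0.399% of counts).

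Counts were filtered with filterByExpr, scaled with TMM (trimmed mean of M-values) and fitted with edgeR 4.0.16 (R 4.3.3, with limma 3.58.1), robust quasi-likelihood, on all 16 libraries with 1 mean per group and no covariate. Adjusted p-values are two-sided, by Benjamini-Hochberg over 12589 genes, and a call is an adjusted p under 0.05. CPM are TMM-scaled and given per library, as a group mean, or as mean ± SD. A log2 fold is given ± its standard error (the fold over the square root of F). Single-library precision is limited by counting at low levels. Each of the 24 replicate pairs differed by more than sampling noise (chi-square over its degrees of freedom from 1.61 to 3.13).

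The genes and the lists were chosen with earlier results of these data known, and roles were assigned after the genes were seen. Library values are given for the 20 genes of highest bystander ratio, for up to 8 per tested contrast by size of fold, and for those just inside each threshold; Plau was added after its values were seen. Some values for genes and lists are left out of the text. Same-numbered libraries deviated together between untreated cells and responders (r from 0.113 to 0.471) and between the LPS pool and bystanders (r from 0.296 to 0.394). In each other pair of groups r was negative for 3 of 4 numbers, down to -0.356, and positive for replicate 2. A replicate block gives each number 1 shift shared by all 4 groups, so it does not model deviations of opposite sign. Alternatives were library totals alone, DESeq2 1.42.0, no filter, 12 libraries without bystanders, a replicate block, a 2-fold threshold, each library left out, other thresholds of choice and, chosen after seeing the data, the 6 libraries with neural transcripts left out and the per-library rule under other scalings.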

Additional observations from a re-analysis of the deposited data

Results flagged for a closer look

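In 112 groups of 4 libraries over 28 genes, 4 held a library whose gap to its nearest neighbour exceeded Dixon's critical value as a share of the group's range, and chance flags about 1 in 20. Kif5c stood at 3.09 CPM in responder replicate 1, above the other 3 responder libraries. Slc46a3 stood at 7.39 CPM in bystander replicate 2, above the other 3. Tgtp2 stood at 90.3 CPM in bystander replicate 4, below the other 3. Tnfsf18 stood at 2.42 CPM in LPS pool replicate 3, above the other 3.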

How the results depend on the processing

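Scaling by library totals alone changed the most. For the LPS pool against untreated cells it gave 31 genes lower and a median log2 fold of 0.20; for responders against untreated cells 31 lower and 0.25; for responders against the pool 13 higher and 0.026. It moved the median of all genes to -0.36, -0.41 and -0.05, and the upward share of all calls from 47.4% to 21.6%, 48.7% to 21.7% and 62.7% to 30.7%. It also called Taf7, Hhex, Cd180, Ptpro, Selenbp1 and Rubcnl lower than untreated cells in both the pool and responders, where TMM gave no call. In responders against untreated cells it turned 5 genes of the set from called higher to called lower: Tasor2 (-0.27), Lratd2 (-0.26), Stk38l (-0.25), Cttnbp2nl (-0.19) and Rgs1 (-0.19); P2ry13 (-0.026) changed sign and lost its call. A 2-fold threshold left 0 genes lower in the pool, 34 higher and 1 lower in responders against untreated, and 0 higher and 0 lower in responders against the pool. Without the 6 libraries with neural transcripts 2 genes were lower in responders than in the pool. At 1.5 and 3 times the set had 265 and 17 genes, and with totals alone 96, of which 70 are in the set. Leaving out 1 library at a time gave 49 to 50 higher, 13 to 17 lower and medians of 0.51 to 0.59 for the pool against untreated, 51 to 55, 16 to 20 and 0.62 to 0.65 for responders against untreated, 18 to 23, 2 to 7 and 0.06 to 0.10 for responders against the pool, and 79 to 82 genes in the set. Only for the 4 genes lower in responders than in the pool did 1 library move a count by over 1.5 times: 7 without LPS pool replicate 2 and 2 without replicate 3. The replicate block gave 49 and 17, 55 and 18, and 23 and 4 genes higher and lower, and of 51 gene values followed it ended 1 call, Enc1 in responders against the pool (adjusted p = 0.0529, edgeR). The neural definition first planned found 0 libraries and was not run. Genes of a few CPM rest on few reads per library, which limits what they can show, and near-identical genes may exchange reads. The cause of these changes was not tested.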
